A study of Homo sapiens with 24 samples.

Results

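The comparison described here set 3 RNA sequencing libraries of CTRL cells after 24 h of doxycycline against 3 libraries of CTRL cells at 0 h, 6 of the 24 libraries of the series, chosen by their labels alone. CTRL cells are MIA PaCa-2 cells, a human pancreatic ductal adenocarcinoma (PDAC) line, carrying the Tet-On vector pCW57 with the transactivator and its TRE promoter but no CEBPD cDNA, and the red fluorophore mCherry. They are the non-inducible counterpart of C/EBPδ-inducible MIA PaCa-2 cells, which carry the same vector with the CEBPD cDNA and the green fluorophore mVenus and were used as a pool of 3 clones. Doxycycline was given at 2 µg per ml. The labels list this dose at 0 h as well, whereas the methods of the study describe cells without doxycycline as the baseline. The comparison asks what the treatment does to the transcriptome of cells that cannot induce C/EBPδ. Hours in culture and doxycycline changed together, so their shares in any difference cannot be told apart. The 3 libraries of a group came from wells seeded in parallel, so p-values measure the spread between wells, which may be technical.

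After 24 h of doxycycline, CTRL cells held more mRNA of most genes tested of the ATF4-linked stress response and of many that make, import and load amino acids, and less of most mRNAs encoded by the mitochondrial genome. CHAC1 rose 4.35-fold, DDIT4 2.90-fold, SLC7A11 2.86-fold, ASNS 2.61-fold and PSAT1 2.25-fold. MT-ND1 and MT-CO1 fell to 0.681 and 0.682 of their 0 h level. Smaller falls were found among genes of growth factor signalling and cell contact. A few genes stood outside these groups, above all IL23R and CENPT, which rose in CTRL cells and not in C/EBPδ-inducible cells.

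Doxycycline is a tetracycline antibiotic that binds bacterial ribosomes, and mitochondria keep ribosomes of bacterial descent that translate the few proteins encoded by mitochondrial DNA. The integrated stress response is a pathway in which several kinases phosphorylate the translation factor eIF2α. Most protein synthesis then slows while the mRNA of the transcription factor ATF4 is translated better. ATF4 pairs with C/EBP proteins on a composite DNA element, the CARE, and is known to raise genes for amino acid uptake, serine synthesis and tRNA charging.

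The 6 libraries held between 17328881 and 22312401 counts. CEBPD, the gene that the other line induces, was at 4.20, 3.72 and 3.91 CPM (counts relative to library size, scaled by TMM) at 0 h and at 3.39, 3.70 and 3.66 at 24 h, a log2 fold change of -0.15 (SE 0.142, edgeR adjusted p = 0.586). In C/EBPδ-inducible cells it went from 18.9, 23.3 and 22.2 to 320, 302 and 301 CPM. Keratins of simple epithelia were high, with KRT8 between 1269 and 1598 CPM, while CDH1, the epithelial cadherin, averaged 1.05 CPM at 0 h and 0.96 at 24 h. Of the markers of other cell types, 4 of 8 leukocyte genes, 6 of 10 acinar and endocrine genes, 2 of 7 fibroblast genes and 1 of 6 endothelial genes had no count in any of the 6 libraries. Their summed levels did not exceed 5.16 CPM for the leukocyte list, 4.35 for the acinar and endocrine list and 0.469 for the endothelial list. The fibroblast list summed to between 633 and 667 CPM at 0 h and between 518 and 543 at 24 h, nearly all of it COL1A2, a collagen chain. In bulk RNA, fewer cells of a kind and less RNA per cell cannot be told apart.

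Of 15196 genes tested, 921 were called at a false discovery rate of 0.01 by edgeR's quasi-likelihood test, which is 6.06% of them. Of these, 427 (2.81% of the genes tested) were higher and 494 (3.25%) lower at 24 h. The changes were small for most genes, with a median absolute log2 fold change of 0.27 among called genes, and only 36 called genes changed more than 2-fold, 28 of them upward. In 28.4% of all genes tested the 3 libraries at 24 h did not overlap the 3 at 0 h, 16.2% with 24 h higher and 12.2% with 24 h lower. Without 1 library at a time, between 505 and 1104 genes were called. The lower counts came without the third 0 h library (560) and without the first, second or the third 24 h library (533, 505 and 583).

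**Figure D1:**
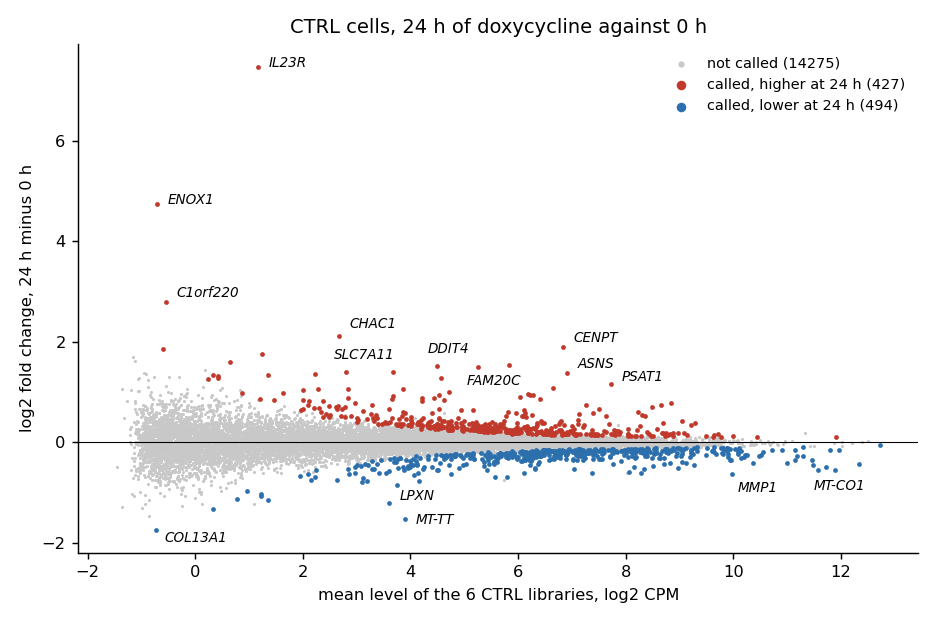
Each point is 1 of the 15196 genes tested, with the mean level of the 6 CTRL libraries on the x axis (log2 CPM) and the log2 fold change between 24 h and 0 h on the y axis. The 427 genes called higher are red, the 494 called lower blue and all others grey, and most coloured points lie within 1 log2 unit of 0, with IL23R, ENOX1 and C1orf220 far above.

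The gene lists used here and below were written with earlier results of these data known, so their shares are not independent evidence. The list of ATF4 and integrated stress response genes held 25 members, of which 21 had enough counts to be tested. Of these 21, 17 rose (81.0%, against 2.81% of all genes tested) and 2 fell, and the median log2 fold change was 0.74, against 0.00 over all genes. ATF4 itself was at 110, 115 and 117 CPM at 0 h and at 189, 191 and 197 at 24 h. Its 2 groups of libraries lay far apart, with a log2 fold change of 0.74 (SE 0.035, edgeR adjusted p = 1.03e-11). Among the partners and relatives of ATF4, the C/EBP proteins DDIT3 (CHOP) and CEBPG rose by 0.77 and 0.54 on the log2 scale, and the AP-1 family repressor JDP2 rose by 1.33. ATF3, a further factor of the pathway, rose by 0.84. The call of ATF3 was lost without any 1 of the libraries other than the first at 0 h.

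The target genes of the list covered a wide range. CHAC1, which degrades glutathione, was at 2.35, 1.98 and 2.71 CPM at 0 h and at 9.33, 11.4 and 10.3 CPM at 24 h. All 3 libraries at 24 h were above those at 0 h, and the log2 fold change was 2.12 (SE 0.134, edgeR adjusted p = 7.88e-10). DDIT4 (REDD1), an inhibitor of mTORC1, went from 28.7, 28.3 and 29.8 to 81.5, 86.6 and 85.3 CPM, with replicates within a few CPM of each other. TRIB3, a pseudokinase that binds ATF4, rose from 16.2, 16.9 and 18.7 to 33.6, 36.0 and 35.5 CPM. SESN2, a leucine sensor that restrains mTORC1, rose by 0.84 and VLDLR, a lipoprotein receptor, by 1.40 on the log2 scale. The 2 members that fell were PPP1R15A (GADD34), the phosphatase subunit that reverses eIF2α phosphorylation, by 0.23, and DDR2, a collagen receptor, by 0.17. PPP1R15A was not called without the third 0 h library or without any 1 of the 24 h libraries. GDF15 and NUPR1 did not pass the test, with log2 fold changes of 0.19 and 0.82 (edgeR adjusted p = 0.798 and 0.288).

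Enzymes of serine synthesis and one-carbon metabolism showed 11 higher of 22 tested, against 2.81% of all genes, and 1 lower (4.55%, against 3.25%). PHGDH, PSAT1 and PSPH, the enzymes that carry 3-phosphoglycerate to serine, all rose. PHGDH was at 61.3, 63.3 and 67.2 CPM at 0 h and at 133, 138 and 139 at 24 h. PSAT1 was at 130, 131 and 127 CPM at 0 h and at 290, 303 and 285 at 24 h. Both rose more than 2-fold, with no overlap between the groups, and PSPH rose by 0.53 on the log2 scale. MTHFD2 and MTHFD1L, mitochondrial folate enzymes, rose by 0.53 and 0.42, SHMT2, which turns serine into glycine in mitochondria, by 0.34, and the alanine transaminase GPT2 by 0.87. Their cytosolic counterparts SHMT1 and MTHFD1 had log2 fold changes of 0.04 and 0.02 and did not pass the test (edgeR adjusted p = 0.611 and 0.730). GLDC, the glycine decarboxylase, was the member that fell, by 0.61.

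Among amino acid transporters, 8 of 17 tested rose (47.1%, against 2.81% of all genes) and 2 fell (11.8%, against 3.25%). SLC7A11, the cystine importer xCT, was at 11.9, 11.3 and 11.4 CPM at 0 h and at 32.4, 33.6 and 33.9 at 24 h. SLC7A5 (LAT1), a carrier of leucine and other large neutral amino acids, went from 329, 328 and 355 to 574, 587 and 596 CPM, and its heavy chain SLC3A2 rose by 0.57 on the log2 scale. SLC1A4 (ASCT1), a carrier of serine and alanine, rose by 1.27, and the glycine carrier SLC6A9 rose by 0.83. The taurine carrier SLC6A6 and the glutamine carrier SLC38A2 fell by 0.44 and 0.25.

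Of the 20 cytosolic aminoacyl-tRNA synthetases, which load tRNAs with amino acids, 13 rose (65%, against 2.81% of all genes) and none fell. CARS1, for cysteine, rose most among them, from 46.2, 52.8 and 48.4 to 91.6, 98.8 and 98.2 CPM. GARS1, for glycine, went from 293, 299 and 310 to 498, 515 and 508 CPM. YARS1, MARS1, AARS1 and TARS1, for tyrosine, methionine, alanine and threonine, rose by 0.70, 0.67, 0.60 and 0.55 on the log2 scale. The 7 that did not pass the test, KARS1, QARS1 and RARS1 among them, had log2 fold changes between -0.06 and 0.08. AARS1, CARS1, GARS1, JDP2, MTHFD2, SHMT2, SLC6A9, SLC7A5, SLC7A11, VLDLR and YARS1 overlap genes on the opposite strand. MARS1 and DDIT3 overlap each other on opposite strands, with MARS1 at a mean of 223 and DDIT3 of 9.90 CPM at 24 h, and ASNS overlaps another gene on its own strand. How strand was treated in counting is not given in the sources used here, so reads of such overlaps may not be assigned to one gene.

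**Figure D2:**
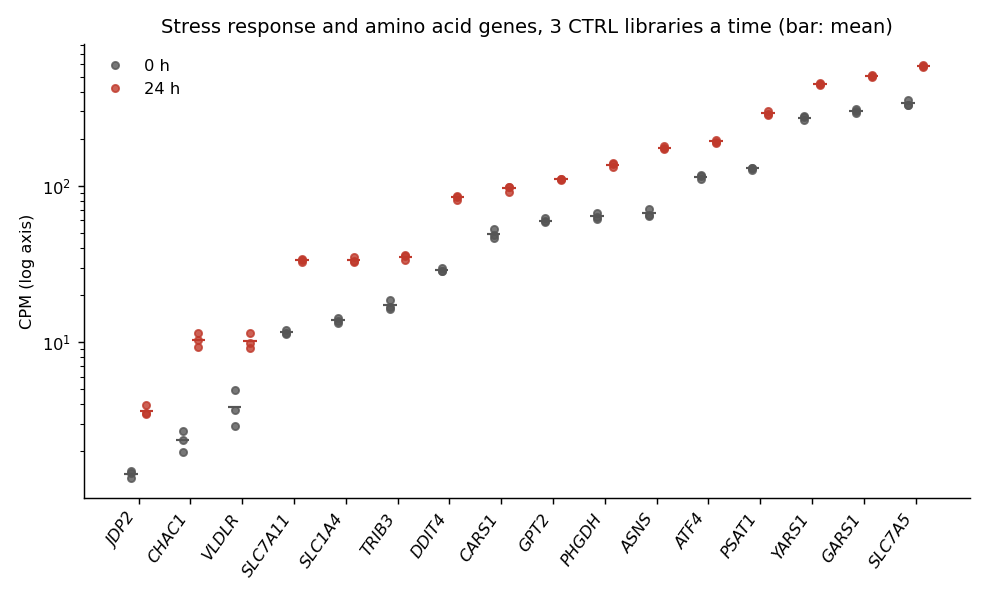
The level of 16 stress response and amino acid genes is shown in each CTRL library on a logarithmic CPM axis, with grey points at 0 h, red points at 24 h and a bar at the mean of 3 libraries. In each gene shown the 3 libraries at 24 h lie above the 3 at 0 h, from JDP2, the lowest, to SLC7A5, the highest.

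Promoters were read for the letters of the CARE, TGATGNAAN, on both strands of the window from 250 bases before to 50 bases after the RefSeq start (GRCh38.p14). Upstream stretches of 4 genes that hold it are shown because they belong to enzymes of different steps, glutathione breakdown (CHAC1), asparagine synthesis (ASNS), alanine tRNA charging (AARS1) and mitochondrial folate metabolism (MTHFD1L). Each runs 5′ to 3′ over the 250 bases before the start, with the match in capitals.
CHAC1, chr15:40953221-40953470, plus strand: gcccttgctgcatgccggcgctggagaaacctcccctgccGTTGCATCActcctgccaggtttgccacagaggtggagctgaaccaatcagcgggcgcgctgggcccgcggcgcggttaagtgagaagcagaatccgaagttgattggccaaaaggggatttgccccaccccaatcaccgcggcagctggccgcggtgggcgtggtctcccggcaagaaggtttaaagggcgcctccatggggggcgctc
ASNS, chr7:97872409-97872658, minus strand: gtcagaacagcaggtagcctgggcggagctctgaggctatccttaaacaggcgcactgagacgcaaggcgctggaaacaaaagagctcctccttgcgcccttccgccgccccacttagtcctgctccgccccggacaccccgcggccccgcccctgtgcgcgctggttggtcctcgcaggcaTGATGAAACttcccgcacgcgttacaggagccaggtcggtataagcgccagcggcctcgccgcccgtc
AARS1, chr16:70289507-70289756, minus strand: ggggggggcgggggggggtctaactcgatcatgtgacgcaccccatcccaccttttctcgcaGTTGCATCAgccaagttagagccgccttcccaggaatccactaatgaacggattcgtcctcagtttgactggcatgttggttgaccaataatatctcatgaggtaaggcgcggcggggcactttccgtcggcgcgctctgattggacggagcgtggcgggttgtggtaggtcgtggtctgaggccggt
MTHFD1L, chr6:150866236-150866485, plus strand: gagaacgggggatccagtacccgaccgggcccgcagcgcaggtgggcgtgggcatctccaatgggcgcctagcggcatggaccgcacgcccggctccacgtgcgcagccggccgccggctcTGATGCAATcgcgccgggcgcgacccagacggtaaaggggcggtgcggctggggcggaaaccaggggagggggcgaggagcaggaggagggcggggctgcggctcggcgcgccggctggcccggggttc
The match began 210 bases before the start in CHAC1, 68 in ASNS, 188 in AARS1 and 129 in MTHFD1L.

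Of 10134 tested genes with a RefSeq promoter, 156 held the CARE letters (1.54%), and of all 27305 RefSeq promoters 1002 did (3.67%). Among genes called higher, 28 of 344 held them (8.14%), and among genes called lower, 4 of 382 (1.05%). In the synthetase list 6 of 16 promoters held a match, in the stress response list 4 of 19, in the transporter list 3 of 15 and in the serine and one-carbon list 1 of 14 (7.14%). The same letters were carried by 6 genes of these lists, GTTGCATCA or their reverse complement, namely AARS1, CARS1, CHAC1, IARS1, MARS1 and NARS1. Other motifs searched gave the following shares. The hypoxia response element ACGTG was in 29.9% of promoters of genes called higher, 24.1% of those called lower and 27.2% of all tested, and the E-box CACGTG, a part of whose letters it shares, in 11%, 9.69% and 10.3%. The antioxidant element TGACNNNGC was in 14%, 16.2% and 15.1%, and the metal response element TGCNCNC in 62.5%, 60.5% and 63.5%. The sterol element TCACNCCAC was in 2.33%, 1.31% and 0.967%, and the D-box TTATGNAA in 2.03%, 2.62% and 1.41%. The E2F site TTTNNCGC was in 11.3%, 8.12% and 10.7%, the cell cycle homology region TTTGAA in 10.5%, 12.8% and 9.48%, and the TEAD site GGAATG in 9.88%, 12.8% and 10.5%. The AP-1 site TGANTCA was in 4.07% of promoters of genes called higher, 8.12% of those called lower and 4.17% of all. A match of letters describes the sequence and was not read as a bound site.

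Of the 13 mRNAs encoded by mitochondrial DNA, all of them subunits of the respiratory chain or ATP synthase, 11 fell and none rose. Over all genes tested 3.25% fell. MT-ND1, of complex I, was at 3571, 3662 and 3608 CPM at 0 h and at 2489, 2500 and 2445 at 24 h. MT-CO1, of complex IV, went from 4441, 4646 and 4446 to 3054, 3181 and 3062 CPM. Neither gene's groups overlapped, and the log2 fold changes were -0.55 for both (SE 0.018 and 0.020, edgeR adjusted p = 3.90e-14 and 1.75e-13). MT-CO3, MT-ND4L, MT-ND5, MT-ND4 and MT-CYB fell by 0.49, 0.48, 0.44, 0.44 and 0.41 on the log2 scale. The smallest falls past the test were those of MT-ND2, by 0.16, and of MT-ATP6, by 0.16. MT-ATP8 and MT-ND3 did not pass, with log2 fold changes of -0.15 and -0.03. MT-ATP8 was called lower without the first 0 h library. The reading frames of MT-ND4 and MT-ND4L overlap, as do those of MT-ATP8 and MT-ATP6, so reads at the joins may not be assigned to one gene.

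Mitochondrial genes held between 3.32% and 3.42% of counts at 0 h and between 2.58% and 2.66% at 24 h. The mitochondrial rRNAs, a class removed during library preparation, were not called. Without a filter on low counts both were called lower, with log2 fold changes of -0.75 for MT-RNR1 and -0.61 for MT-RNR2, and with the replicate block they were at -0.40 and 0.01, not called. MT-RNR2 was at 118, 72.4 and 748 CPM at 0 h and at 160, 240 and 218 at 24 h, so the third 0 h library stood apart from the first and second. Without that library both rRNAs were higher at 24 h, MT-RNR2 by 1.1 and MT-RNR1 by 0.96 on the log2 scale (edgeR adjusted p = 0.000148 and 0.000749), the reverse of the fit with all 6 libraries. The 11 mRNAs that fell were called lower without that library too.

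Genes of mitochondrial tRNAs, a list added after seeing the data, were counted at low levels. Of 22, 14 could be tested, and 7 fell, against 3.25% of all genes, and none rose. MT-TT, the tRNA for threonine, was at 21.9, 22.1 and 22.5 CPM at 0 h and at 7.58, 8.96 and 6.70 CPM at 24 h. All 3 libraries at 24 h were far below the 3 at 0 h, and the log2 fold change was -1.53 (SE 0.088, edgeR adjusted p = 2.12e-10). MT-TS2, MT-TH and MT-TF, for serine, histidine and phenylalanine, fell by 1.33, 1.03 and 0.85. These 4 genes are among the 10 that fell most of all genes named by size, and their sequences are given on the plus strand of GRCh38 as the study's genome build has them.
MT-TT, chrM:15888-15953: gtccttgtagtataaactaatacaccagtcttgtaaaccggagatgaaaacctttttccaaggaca
MT-TS2, chrM:12207-12265: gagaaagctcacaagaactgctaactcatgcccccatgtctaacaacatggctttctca
MT-TH, chrM:12138-12206: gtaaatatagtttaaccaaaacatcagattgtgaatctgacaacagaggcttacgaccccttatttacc
MT-TF, chrM:577-647: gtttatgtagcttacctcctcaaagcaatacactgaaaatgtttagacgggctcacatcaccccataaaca
MT-TH and MT-TS2 are direct neighbours in this order, and MT-TP, which fell by 0.78, lies next to MT-TT on the other strand. MT-TS2 lost its call without the second 0 h library or any 1 of the 24 h libraries, and MT-TH without the second or the third 0 h or the third 24 h library.

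**Figure D3:**
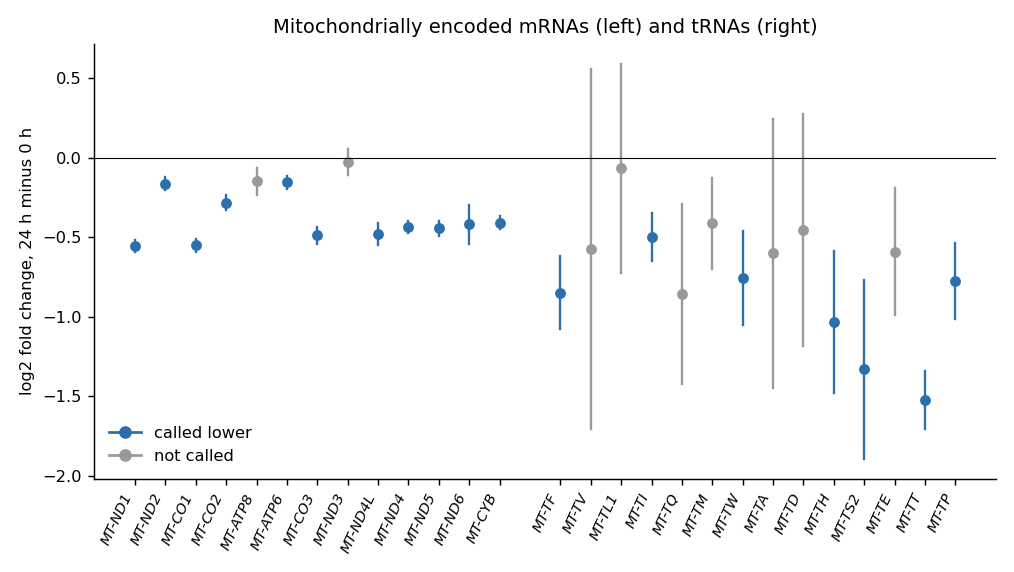
Points give the log2 fold change between 24 h and 0 h for the 13 mitochondrially encoded mRNAs (left) and the 14 mitochondrial tRNA genes tested (right), in genome order, with 95% confidence intervals as lines. Blue marks the 11 mRNAs and 7 tRNA genes called lower, and grey marks those not called, whose tRNA intervals are wide.

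Among nuclear genes of mitochondria few were called. Of 75 nuclear-encoded respiratory chain genes 1 was called (1.33%), UQCRFS1, the Rieske subunit of complex III, which rose by 0.16. Of 78 mitochondrial ribosomal protein genes 3 rose (3.85%) and 1 fell (1.28%), against 2.81% and 3.25% of all genes. MRPS10 and MRPL24 were higher by 0.27 and 0.25. Among 22 mitochondrial chaperones and proteases 4 rose (18.2%, against 2.81% of all genes) and none fell: GRPEL2, a co-chaperone of protein import, by 0.29, and the proteases LONP1, HTRA2 and YME1L1 by 0.25, 0.21 and 0.18. The median log2 fold changes of these 3 lists were 0.04, 0.01 and 0.03. HTRA2 lost its call without any 1 library, UQCRFS1 without any other than the second at 0 h, and GRPEL2 without the first or second 24 h library.

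Genes that respond to growth factors fell more often than they rose. In the list of immediate-early genes and feedback inhibitors of ERK, 10 of 35 tested fell (28.6%, against 3.25% of all genes) and 1 rose (2.86%, against 2.81%). DUSP6, a phosphatase of ERK, was at 24.4, 25.6 and 23.8 CPM at 0 h and at 17.8, 17.2 and 17.6 at 24 h, without overlap. SPRY2, a further feedback inhibitor, and the transcription factors JUN and MYC fell by 0.35, 0.33 and 0.30 on the log2 scale, while EGR1 rose by 0.34. FOS, FOSB and JUNB did not pass the test, with log2 fold changes of -0.28, -0.21 and -0.09.

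Of 30 tested targets of YAP/TEAD and SRF, which read cell contact and actin tension, 8 fell (26.7%, against 3.25% of all genes) and 1 rose (3.33%, against 2.81%). CCN1 (CYR61), a matricellular protein, went from 149, 152 and 161 to 107, 110 and 106 CPM. NT5E (CD73) and the actin crosslinker FLNA fell by 0.46 and 0.28, and AJUBA, an adaptor of the Hippo pathway, rose by 0.48. CCN2 was at a log2 fold change of -0.24 and did not pass (edgeR adjusted p = 0.661). The count of 8 dropped to 5 without the third 0 h library or without the first or second 24 h library. ID1, ID2 and ID3, inhibitors of bHLH factors and targets of BMP signalling, were the 3 of 15 TGF-beta and ID genes that fell (20%), by 0.17, 0.33 and 0.32. Without the third 0 h library or any 1 of the 24 h libraries 1 of these 3 was called, and without the first 0 h library ID2 was not. DKK1, a secreted Wnt inhibitor, went from 71.3, 62.5 and 72.6 to 42.4, 44 and 42.1 CPM. With TCF7 it was 1 of the 2 genes that fell among 13 Wnt and Notch targets (15.4%). Of 16 cytokines and NF-κB targets, 4 fell (25%) and 1 rose (6.25%), with CXCL8 (interleukin-8) lower by 0.52 and the apoptosis inhibitor BIRC3 by 0.62.

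The clock list, 16 genes tested, had 5 that rose (31.2%, against 2.81% of all genes) and 2 that fell (12.5%, against 3.25%). The PAR bZIP factors TEF and DBP and the repressor NR1D2 rose by 0.88, 0.74 and 0.65 on the log2 scale. PER1 and PER3, of the negative arm, rose by 0.40 and 0.33, while BMAL1 of the positive arm fell by 0.41 and the repressor CRY1 by 0.27. TEF was at 13.9, 12.3 and 12.7 CPM at 0 h and at 23.7, 26.0 and 22.8 CPM at 24 h. PER2 and NR1D1 had log2 fold changes of 0.18 and 0.26 and did not pass. Without the first or the third 24 h library PER3 and CRY1 were not called, nor was CRY1 without the second 0 h library.

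Other stress and metabolic lists had called members in both directions. Over all genes tested 2.81% rose and 3.25% fell. Of 25 NRF2 target enzymes 5 rose and 4 fell, and the member with the largest change was SLC7A11, which also belongs to the transporter list. HMOX1, the inducible heme oxygenase, fell by 0.31 and ME1, malic enzyme, rose by 0.37. Of 37 genes of glycolysis and the hypoxia response 4 rose (10.8%) and 2 fell (5.41%). VEGFA, the angiogenic factor, was at 49.9, 55.9 and 53 CPM at 0 h and at 97.7, 106 and 101 at 24 h. The hypoxia targets SLC2A1, LDHA, PDK1 and ADM did not pass, with log2 fold changes of -0.05, 0.08, 0.08 and -0.25. Of 23 ER chaperones and unfolded protein response genes 2 rose (8.70%), XBP1 by 0.41 and HERPUD1 by 0.32, and 1 fell (4.35%), CALR by 0.10. Among 31 genes of cholesterol and fatty acid synthesis 4 rose (12.9%) and 1 fell (3.23%), with SREBF1 higher by 0.30 and FASN lower by 0.15. FASN lost its call without the third 0 h or the first or second 24 h library, CALR without any 1 library other than the first at 0 h, and HMOX1 without the third 0 h library or any 1 of the 24 h libraries.

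Among genes of proliferation the called changes were small. Of 42 genes of DNA replication and G1/S, 1 rose and 4 fell (9.52%, against 3.25% of all genes), and of 36 genes of G2/M and mitosis 5 fell (13.9%), MKI67 by 0.15 and UBE2C by 0.17. UBE2C was not called without the third 0 h or the first or the third 24 h library. Median log2 fold changes were -0.05 and -0.04. Of 44 replication-dependent histone genes 1 rose (2.27%, against 2.81% of all genes). Of 78 cytosolic ribosomal protein genes 2 fell (2.56%), and of 28 ribosome biogenesis genes 1 fell (3.57%). None of 28 interferon-stimulated and MHC class I genes passed the test. Iron, zinc and metallothionein, heat shock, p53, autophagy and snoRNA host gene lists, with between 10 and 31 tested, had between 1 and 5 called members each. Of all genes tested 6.06% were called in either direction.

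**Figure D4:**
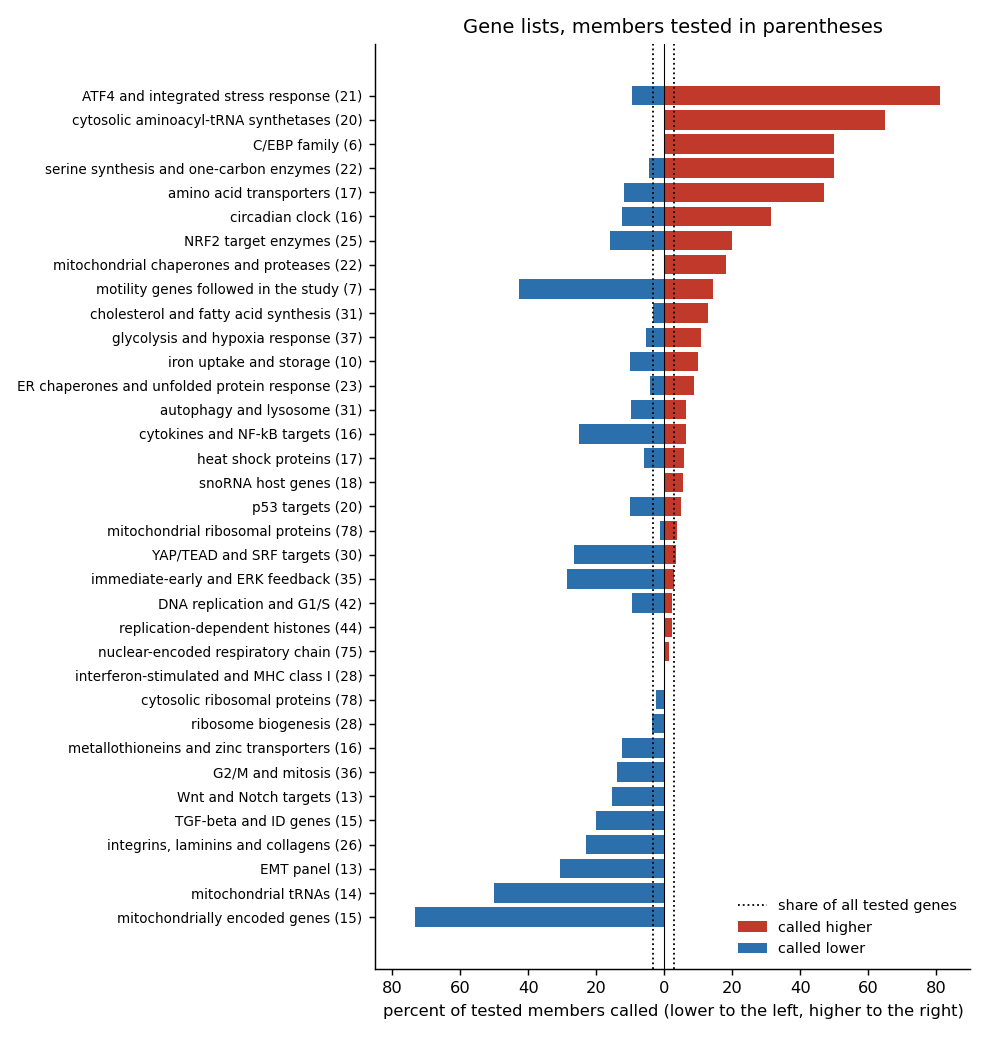
Bars give the percent of tested members of each gene list with at least 6 members tested, cell type markers left out, called higher (red, to the right) or lower (blue, to the left) at 24 h, with the number tested in parentheses. Dotted lines mark the shares over all genes tested, 2.81% higher and 3.25% lower, and the stress response, synthetase, C/EBP family, serine and transporter lists reach furthest right and the mitochondrially encoded genes furthest left.

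Of 26 integrin, laminin and collagen genes 6 fell (23.1%, against 3.25% of all genes) and none rose. COL17A1, a hemidesmosomal collagen, fell by 0.61, ITGA10 by 0.60 and COL18A1 by 0.29. COL13A1, below 1 CPM on average at both times, fell by 1.74. It lost its call without any 1 library other than the first at 0 h, and 3 members of the list were called without the second 24 h library. The epithelial keratins KRT8, KRT18 and KRT19 fell by 0.28, 0.20 and 0.25, and the summed keratin list went from between 2823 and 2973 CPM to between 2454 and 2485. KRT8 and KRT18 overlap each other on opposite strands, so reads of the overlap may not be assigned to a single gene. In the EMT panel of 20 genes 13 were tested, 4 fell (30.8%) and none rose. The 4 were the proteoglycan SDC1 (syndecan-1), the calcium-binding protein S100A4, the transcription factor ZEB1 and the intermediate filament VIM, with falls of 0.20, 0.20, 0.16 and 0.06. Syndecan-1 is a marker of epithelial cells and the other 3 are markers of mesenchymal cells. MUC1, CDH1, CTNNB1, GSK3B, SNAI1, ACTA2, COL4A1, LAMB1 and SUMO2 were tested and not called, with log2 fold changes between -0.30 and 0.05. SNAI2, MMP2, FN1, TWIST1, TWIST2, ZEB2 and CDH2 had too few counts to be tested. Without the second 24 h library none of the EMT panel was called, and without any 1 of the others except the first at 0 h the count was 1 or 2.

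The 7 motility genes followed in the study were chosen there on these samples, so their direction is not independent evidence. At 24 h in CTRL cells GSN, an actin-severing protein, fell by 0.23, ITGB4, a laminin-binding integrin chain, by 0.21 and the receptor kinase AXL by 0.15. MYPN, a sarcomeric and actin-binding protein, rose by 0.30. GSN alone of the 3 that fell was called without the first or the second 24 h library, and AXL was not called without the first or the third 0 h or the third 24 h library. EGFR, NET1 and ETS1 did not pass, with log2 fold changes of 0.12, -0.05 and -0.05. Of the C/EBP family, 3 of 6 tested rose, against 2.81% of all genes. These were DDIT3, CEBPG and CEBPB, the last by 0.41. CEBPA, CEBPD and CEBPZ did not pass, with log2 fold changes of -0.12, -0.15 and -0.06, and CEBPE had no count in the 6 libraries.

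The genes with the largest increases lay partly outside every list. IL23R, a subunit of the interleukin-23 receptor (GRCh38 chr1:67138907-67259979, plus strand), had 0, 1 and 0 counts at 0 h and 82, 100 and 94 at 24 h. Set against a floor of 3 counts per library, it was at least 26.6-fold higher at 24 h. ENOX1, a surface oxidase (chr13:43213130-43786972), had 1, 1 and 0 counts at 0 h and 26, 24 and 22 at 24 h, at least 7.00-fold higher. C1orf220 rose from 4, 1 and 4 to 16, 34 and 25 counts.

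CENPT, a kinetochore protein that ties centromeric chromatin to spindle attachment (chr16:67828157-67847811, minus strand), had the smallest p of all genes. It was at 45.1, 50 and 49.2 CPM at 0 h and at 177, 173 and 190 at 24 h, a log2 fold change of 1.89 (SE 0.045, edgeR adjusted p = 6.27e-16). Its annotated exons overlap those of THAP11, NUTF2 and TSNAXIP1 on the opposite strand, and THAP11 fell by 0.56 while the other 2 did not pass. NUTF2 was called lower without the first 0 h library. FAM20C, the kinase that phosphorylates secreted proteins, went from 18.9, 19.7 and 20.7 to 51.4, 58.5 and 59.0 CPM. Further genes named by size were MMP13, a collagenase, with a log2 fold change of 1.86, RAB39B, a small GTPase, with 1.75, and FOXO6, a forkhead factor, with 1.60, all at or below 3.63 CPM at 24 h. MMP13 was called only with the third 0 h library left out or with all 6 libraries.

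Among falls outside the mitochondrial genome, LPXN (leupaxin), a focal adhesion adaptor, went from 19.4, 14.9 and 16.4 to 6.95, 7.90 and 7.27 CPM. FGF1, a fibroblast growth factor, fell by 1.15 and SIGIRR, an inhibitory receptor of the interleukin-1 family, by 1.07. The lncRNA ENSG00000269902 fell by 1.14, and MIR222HG beside it by 0.55. RNVU1-4, a variant U1 snRNA gene with near-identical copies among which reads could be split, fell by 0.97, and the antisense gene WT1-AS by 0.79. Without 1 library at a time ENSG00000269902 was never called, SIGIRR was called only without the first or the third 0 h library, RNVU1-4 only without the first or second 0 h library, and FGF1 was lost only without the third. By smallest p the lower genes outside mitochondria were MMP1, CTSC, GPRC5A and FERMT1. MMP1, interstitial collagenase, went from 1236, 1225 and 1215 to 805, 794 and 791 CPM, and CTSC, cathepsin C, from 371, 380 and 381 to 250, 245 and 252. GPRC5A, an orphan receptor, and FERMT1 (kindlin-1), an integrin activator, fell by 0.42 and 0.60. MMP1 and WT1-AS also overlap genes on the opposite strand.

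Whether these changes were the same in C/EBPδ-inducible cells was tested as the interaction of line and time over 12 libraries, of which 6 are not in the CTRL comparison. In C/EBPδ-inducible cells 2464 of 16224 genes were called at 24 h (15.2%). The change differed between the lines for 948 genes (5.84%), and for 289 of the 921 genes called in CTRL cells (31.4%). Those 921 were chosen on CTRL libraries that also enter the interaction, so their share is not to be compared with that of all genes. In the stress response list 15 members rose in C/EBPδ-inducible cells, against 7.16% of all genes, and the interaction was called for 5, with CHAC1 0.77 higher in CTRL cells and TRIB3 0.57 lower on the log2 scale. DDIT4, PHGDH, GPT2 and ATF4 differed by -0.09, 0.06, -0.04 and 0.09 and did not pass. Of the synthetases 11 rose in C/EBPδ-inducible cells, and the interaction was called for 7, each with the larger rise in CTRL cells. Over all genes a positive interaction, whether from a larger rise or a smaller fall in CTRL cells, was called for 2.98%. Levels at 0 h were not equal in the lines: ASNS was at 130, 114 and 128 CPM in C/EBPδ-inducible cells and SLC7A11 at 52.6, 49.9 and 51.5, above CTRL cells in both cases.

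Of the 13 mitochondrial mRNAs, 8 were called lower in C/EBPδ-inducible cells, against 8.03% of all genes. MT-ND2 and MT-ATP6, which fell in CTRL cells, did not pass there, with log2 fold changes of -0.04 and -0.03. The interaction was called for 6, all with the larger fall in CTRL cells. In each of these 6 the 3 C/EBPδ-inducible libraries at 0 h were below the 3 CTRL libraries. MT-ND1 was at 3214, 3266 and 3065 CPM at 0 h in C/EBPδ-inducible cells and at 2401, 2828 and 2646 at 24 h. Over all genes a negative interaction, whether from a larger fall or a smaller rise in CTRL cells, was called for 2.86%. CENPT stayed at 46.2, 48.3 and 48.1 CPM at 0 h and 42.0, 45.2 and 42.3 at 24 h in C/EBPδ-inducible cells, an interaction of 2.03 (SE 0.067, edgeR adjusted p = 1.29e-16). FAM20C was at 19.4, 22.1 and 21.2 and at 21.3, 20.3 and 18.7 CPM there, an interaction of 1.56 (SE 0.098, edgeR adjusted p = 3.50e-11). IL23R had no count in the 3 libraries at 0 h and 0, 0 and 1 at 24 h in that line, too few for the interaction to be estimated. ENOX1 was already expressed in C/EBPδ-inducible cells, with 54, 62 and 54 counts at 0 h and 47, 64 and 57 at 24 h. For the 7 motility genes the interaction was called in every case, against 5.84% of all genes. All 7 were called lower at 24 h in C/EBPδ-inducible cells, against 8.03%. The study chose them from genes that changed with C/EBPδ induction in these samples, so neither count is independent evidence.

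**Figure D5:**
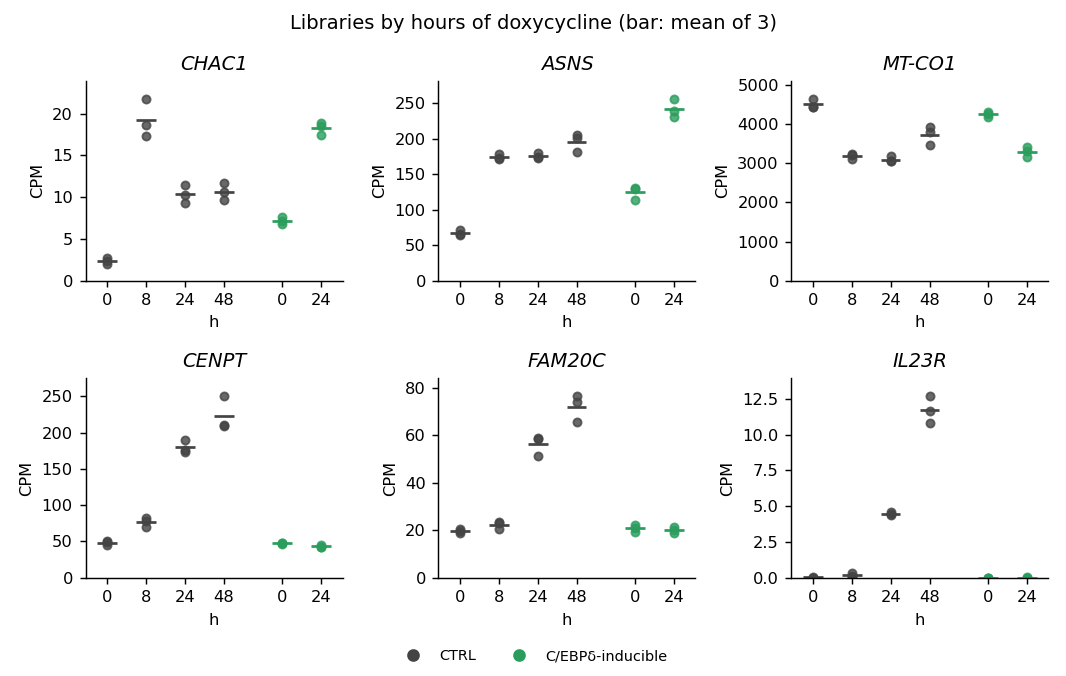
Each panel gives the CPM of 1 gene in every CTRL library (grey) at 0, 8, 24 and 48 h and in every C/EBPδ-inducible library (green) at 0 and 24 h, with a bar at the mean of 3. CHAC1 and ASNS rise and MT-CO1 falls in both lines, while CENPT, FAM20C and IL23R rise in CTRL cells and not in C/EBPδ-inducible cells, and CHAC1 is highest at 8 h.

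At 8 h and 48 h the values come from a fit of all 12 CTRL libraries and share the 0 h libraries with the 24 h comparison. At 8 h 588 of 16066 genes were called (3.66%) and at 48 h 4679 (29.1%). The same 12-library fit called 310 genes at 24 h, against 921 in the fit of 6 libraries, so counts at 24 h and at the other times are not to be ordered across fits. The stress response list had 18 members higher at 8 h, against 1.66% of all genes, and 17 at 48 h, against 15.1%, with medians of 1.09 and 0.88. CHAC1 had log2 fold changes of 3.03 at 8 h, 2.12 at 24 h and 2.18 at 48 h. Of the mitochondrial mRNAs and rRNAs 11 were lower at 8 h, against 2.00% of all genes, and at 48 h 3 were lower and 2 higher, with medians of -0.38 and 0.02. MT-CO1 had values of -0.49, -0.55 and -0.26. CENPT had values of 0.68, 1.89 and 2.22 and FAM20C of 0.18, 1.5 and 1.88. MMP1 and FERMT1, lower at 24 h, were higher at 8 h by 0.20 and 0.47. Of the 58 replication-dependent histones listed, 40 were lower at 48 h, against 2253 of all 16066 genes. Of the 42 genes of DNA replication and G1/S listed, 32 were lower at 48 h.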

How the data were processed

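The data were deposited as a table of raw read counts per gene for 24 libraries, of which the 6 CTRL libraries at 0 h and 24 h were compared. To make the counts, the authors sequenced rRNA-depleted total RNA, removed adapters, mapped what was left to GRCh38 and summed it over genes. The submitters' processing notes name Trimmomatic 0.36, HISAT2 2.3.4.3 and HTSeq. The methods of the study give other versions of Trimmomatic and HISAT2. The strand setting of the counting is not given in the sources used here. The table held 60675 gene IDs, of which 56558 matched GENCODE 44, used for symbols and positions, and no column lacked a sample. The members and gene lists were chosen with earlier results of these data known.

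Genes were filtered with filterByExpr, scaled by TMM and tested with edgeR 4.0.16 (limma 3.58.1, R 4.3.3) by the quasi-likelihood test with Benjamini-Hochberg adjustment at a false discovery rate of 0.01. The study used an analysis of variance at this rate. The 24 h comparison was fitted on 6 libraries, the interaction of line and time on 12, and 8 h and 48 h on the 12 CTRL libraries. Printed CPM values were scaled by TMM over 24 libraries. Depth was 17328881 to 22312401 counts per library. PCR copies were not told apart, so floors, set at 3 counts per library, cover counting error only. An exact permutation test of 3 against 3 libraries cannot go below p = 0.1. Replicate pairs of 1 group differed by more than sampling noise, with a chi-square per gene between 1.66 and 3.51.

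Samples with the same replicate number deviated together from their group means, with correlations of 0.107, 0.116 and 0.127 across genes. The mean for different numbers was -0.058. Deviations from a group mean cancel out within the group, so this value follows from the same-number values and is no separate contrast. The numbers were taken to pair the samples, but the main fits held no replicate block, which was run as an alternative. Named genes were the 10 called genes with the largest fold change in each direction whose libraries did not overlap and whose mean was at least 1 CPM in the higher group, the 10 with the smallest p in each direction, up to 6 called members of each list by size, uncalled members that a count needed, and the C/EBP, EMT and motility lists. Further members were added after their values were seen. DESeq2 1.42.0, other scalings, filters and sets of libraries, a replicate block and leaving out each library were the alternatives. Motifs were searched in RefSeq promoters from 250 bases before to 50 after the start. Code was tested on simulated counts.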

Additional observations from a re-analysis of the deposited data

Results flagged for a closer look

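The change at 24 h differed between CTRL and C/EBPδ-inducible cells for 69 of the genes named here, tested as the interaction of line and time with edgeR at an adjusted p under 0.01. The named genes were 137 called in CTRL cells and 38 not called, and over all genes tested the share was 5.84%. Many were named for their change in CTRL libraries that enter the interaction, so the counts do not describe genes at large. All values are the log2 fold change in CTRL cells minus that in C/EBPδ-inducible cells. It was positive for 42 genes and negative for 27, and 22 of the 69 had changes of opposite sign in the lines.

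Among genes of the stress response and amino acid lists and PCK2, the rise was larger in CTRL cells for most of those that differed. It differed for SLC7A11 by 0.83, CHAC1 by 0.77, SLC6A9 by 0.51, ASNS by 0.42, CARS1 by 0.39, GARS1 by 0.35, PCK2 by 0.34, TARS1 by 0.32, AARS1 by 0.27, CEBPG by 0.26, PSAT1 by 0.26, MARS1 by 0.25 and YARS1 by 0.17. In each of these genes the 3 C/EBPδ-inducible libraries at 0 h were above the 3 CTRL libraries. At 24 h CHAC1 was higher in C/EBPδ-inducible than in CTRL cells (18.9, 17.5 and 18.5 CPM) and PSAT1 was lower (256, 280 and 275). What the starting levels contribute was not tested. The rise was smaller in CTRL cells for TRIB3 by -0.57. GOT1 and TBL1X, in none of these lists, differed by -0.39 and -0.23.

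Mitochondrial genes fell more in CTRL cells, MT-TT by -0.55, MT-ND1 by -0.28, MT-CYB by -0.20, MT-CO1 by -0.19, MT-CO3 by -0.19, MT-ND4 by -0.19 and MT-ND5 by -0.17. In each of these genes the 3 C/EBPδ-inducible libraries at 0 h were below the 3 CTRL libraries. MT-TT was at 13.2, 15.4 and 13.9 CPM at 0 h in C/EBPδ-inducible cells, against 21.9, 22.1 and 22.5 in CTRL cells. At 24 h it was at 7.03, 7.23 and 7.35 CPM in C/EBPδ-inducible cells. What the starting levels contribute was not tested.

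Values were also positive for genes outside these groups, C1orf220 by 2.40, CENPT by 2.03, FAM20C by 1.56, GADD45A by 0.97, NR1D2 by 0.73, TEF by 0.68, GPX8 by 0.65, NR1D1 by 0.58 and HTRA2 by 0.34. ENOX1 had a fitted value of 4.88, which rests on 0 h counts of 1, 1 and 0 in CTRL cells and is no measure of size. The 7 motility genes and 12 others also had positive values, EGFR by 1.02, ITGB4 by 0.95, MYPN by 0.94, AXL by 0.84, GSN by 0.76, NET1 by 0.70, ETS1 by 0.53, ITGA10 by 1.2, MUC1 by 1.07, KRT19 by 0.84, KRT8 by 0.74, GPRC5A by 0.71, DKK1 by 0.59, COL17A1 by 0.55, KRT18 by 0.47, S100A4 by 0.42, COL1A2 by 0.39, CALR by 0.15 and LDHA by 0.15.

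The value was negative for CEBPD, the gene that the other line induces, by -3.99. CDH1 had a fitted value of -3.93. That value rests on 0 h counts of 0, 3 and 4 in C/EBPδ-inducible cells and is no measure of size. Values were also negative for growth response and other genes, RNVU1-4 by -1.15, DUSP6 by -0.97, EGR1 by -0.89, ADM by -0.76, LPXN by -0.69, JUNB by -0.64, ID1 by -0.49, CXCL8 by -0.48, PDK1 by -0.47, CTSC by -0.45, ID3 by -0.42, THAP11 by -0.42, MYC by -0.40, NUTF2 by -0.28 and SLC2A1 by -0.27.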

How the results depend on the processing

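Against 921 genes called at 24 h (427 higher, 494 lower), DESeq2 called 706 (283 higher, 423 lower), no filter on low counts 1236 (657 and 579), a fit of all 24 libraries 582 (277 and 305) and a fit of the 4 CTRL groups, added after seeing the data, 310 (152 and 158). Without 1 library at a time 505 to 1104 were called, 220 to 512 higher and 285 to 592 lower. At 8 h, 588 became 259 with 2 groups fitted and 1053 without a filter, and 289 to 725 without 1 library. With the replicate block, which follows the pairing, 1011 were called (470 and 541), and the block changed no other call among the named genes. Without the third 0 h library MT-RNR1 and MT-RNR2 reversed to 0.96 and 1.1, and without 1 library at a time they ranged from -1.22 to 0.96 and from -1.09 to 1.1. Of 137 named genes called, 93 were called under every alternative run, 12 lost the call under another tool, scaling or filter, 28 without at least 1 library and 42 in the fit of the 4 CTRL groups. The cause was not tested. Genes with few counts, such as MMP13 and COL13A1, limit what these depths can show.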

Other observations

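BCAT1 and PCK2, in none of the fixed lists and chosen after their values were seen, rose in CTRL cells at 24 h. BCAT1, the cytosolic branched-chain aminotransferase, was at 4.03, 2.88 and 2.56 CPM at 0 h and at 7.27, 6.19 and 6.36 at 24 h. PCK2, the mitochondrial PEP carboxykinase, went from 46.4, 47.2 and 43.0 to 80.3, 86.6 and 88.0 CPM. In both genes the groups of libraries did not overlap.

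Among the genes called higher whose promoters hold the CARE letters, 15 of 28 belong to none of the amino acid lists. They include BCAT1, the aspartate transaminase GOT1, with a log2 fold change of 0.33, the ER peroxidase GPX8, with 0.61, and the transcription regulator TBL1X, with 0.65. TTC39B and ULBP1, a ligand of the NKG2D receptor, rose by 1.07 and 1.36. Among p53 targets GADD45A, a stress-induced growth arrest protein, rose by 0.53 and the death receptor FAS fell by 0.54, and FAS was not called without the third 0 h library. ALDOC, a glycolytic aldolase, rose by 0.72.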
